A study of Mus musculus with 3 samples.

Results

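A set of genes that megakaryocytes and platelets use were followed here in LT-HSCs, long-term hematopoietic stem cells, which sustain the whole blood system from the bone marrow. They are Pf4, Vwf, Zfpm1, Nfe2, Gp1ba, Gp1bb, Gp5, Gp9, Itgb3 and Ppbp, taken by name from the array's annotation with every probe that carries one of the names, which gave 10 genes and 15 probes of 37323 genes and 56600 probes. The set was chosen by the signals of these same arrays, with their earlier results known, so its differences are given as a description. Gene expression was measured with Agilent whole-genome arrays in LT-HSCs from C57BL/6J mice of 3 genotypes, with Cy3-labelled total RNA and 1 array per genotype. AtmsKO mice carried CAG-CreERT2 and floxed alleles of Atm, which encodes a kinase that signals DNA breaks. Atmp38dKO mice carried in addition floxed alleles of p38α, encoded by Mapk14, a stress-activated kinase. The CAG promoter drives the tamoxifen-dependent Cre recombinase in cells of all tissues, so deletion was not limited to blood. According to the methods, control mice carried floxed alleles but lacked Cre and also received tamoxifen, and both males and females were included. The label of the WT sample gives wild-type only. Presence of Cre and the deletion thus differ together in the comparisons with WT and cannot be told apart. The labels give an age of 11 weeks, whereas the design text gives tamoxifen at about 5 weeks and analysis 4 weeks after it. How many mice were pooled for an array is not given in the sources used here.

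Megakaryocytes are the marrow cells that shed platelets, and their precursors arise from stem cells under the hormone thrombopoietin. Transcription factors of the GATA, ETS and NF-E2 families with the GATA partner FOG1 (Zfpm1) switch on the genes for platelet granule proteins and adhesion receptors. Some LT-HSCs already express such genes, Vwf among them, and these cells are known for a bias toward platelets. The sort is relevant to these genes. The labels give a CD150+ fraction without CD48, Flt3 and CD34 of the LSK cells, which lack mature lineage markers and carry Sca-1 and c-Kit. The methods add CD41-negative, and CD41 is the platelet integrin chain encoded by Itga2b.

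Sequences are shown for the genes on which the results turn. Gp5 stood lowest on the array labelled Atmp38dKO and Gp1bb, whose protein is part of the same receptor, hardly differed between arrays, so their probes are given first. Each is 60 bases long, on the strand of the transcript, at chr16:30308347-30308406 (minus strand, mm9) for Gp5 and chr16:18621107-18621166 (minus strand, mm9) for the brighter probe of Gp1bb.
Gp5 probe: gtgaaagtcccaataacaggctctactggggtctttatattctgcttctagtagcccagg
Gp1bb probe: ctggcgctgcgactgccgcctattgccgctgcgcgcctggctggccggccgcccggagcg

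Promoters are shown for the chemokine genes Pf4 and Ppbp, which lie side by side on chromosome 5 and were both higher on the AtmsKO array, and for Gp5 and Gp1ba, which went opposite ways on the array labelled Atmp38dKO. Each window holds the 250 bases before the gene's start from RefSeq (build GRCm38.p6), 5′ to 3′ on the gene's strand. The positions are chr5:90772185-90772434 (plus strand) for Pf4, chr5:90768268-90768517 (plus strand) for Ppbp, chr16:30310782-30311031 (minus strand) for Gp5 and chr11:70638872-70639121 (plus strand) for Gp1ba. Capitals mark the GATA letters AGATAA and the ETS letters AGGAAG, searched on both strands, so that they can also read TTATCT and CTTCCT.
Pf4 promoter: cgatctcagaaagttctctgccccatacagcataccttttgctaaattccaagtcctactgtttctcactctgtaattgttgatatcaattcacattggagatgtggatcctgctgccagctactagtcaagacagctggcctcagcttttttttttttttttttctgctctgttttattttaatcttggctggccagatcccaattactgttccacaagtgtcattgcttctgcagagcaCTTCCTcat
Ppbp promoter: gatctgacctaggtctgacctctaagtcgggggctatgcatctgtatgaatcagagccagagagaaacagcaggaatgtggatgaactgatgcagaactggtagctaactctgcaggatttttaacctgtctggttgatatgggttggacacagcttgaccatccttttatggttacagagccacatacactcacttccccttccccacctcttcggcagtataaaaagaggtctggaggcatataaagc
Gp5 promoter: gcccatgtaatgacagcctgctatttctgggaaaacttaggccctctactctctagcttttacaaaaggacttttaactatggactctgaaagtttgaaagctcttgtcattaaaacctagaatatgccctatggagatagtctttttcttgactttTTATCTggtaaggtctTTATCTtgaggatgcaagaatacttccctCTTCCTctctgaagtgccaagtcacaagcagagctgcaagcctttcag
Gp1ba promoter: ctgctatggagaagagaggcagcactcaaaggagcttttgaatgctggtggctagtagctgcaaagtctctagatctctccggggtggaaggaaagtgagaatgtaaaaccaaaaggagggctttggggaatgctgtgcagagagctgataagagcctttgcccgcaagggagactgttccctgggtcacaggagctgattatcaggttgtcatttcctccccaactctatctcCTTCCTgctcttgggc

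The promoter table held 7 of the 10 genes and did not list Vwf, Nfe2 and Itgb3. The GATA letters were in 1 of these 7 windows, that of Gp5, which held them 2 times. Only AGATAA and its reverse complement were searched, so related letters such as TGATAA, present in the Gp1ba window, were not counted. Among all 32851 promoter windows of this length 9.99% held them. The ETS letters were in 4 of the 7, Pf4, Gp1ba, Gp5 and Gp9, against 29.5% of all windows. These matches describe letters and not binding, and Pf4 and Ppbp shared neither match.

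Each value below is the signal the scanner software gives for a probe after background subtraction, in intensity units, with the software's own error (±). That error is technical and says nothing of the spread between mice. Levels on different arrays were compared after each signal was divided by the 75th percentile of its array, which was 102 units for WT, 96.2 for AtmsKO and 118 for Atmp38dKO, and expressed as a log2 difference. A signal printed for the Atmp38dKO array can therefore be the largest and still not give the highest normalized level. With 1 array per group there was no test, and each difference compares those arrays and not the genotypes. The 3 arrays shared a slide and a scan. All 15 probes were well above background on all 3 arrays and none was saturated.

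The targeted genes were examined first. The probes for Atm gave 88.8 and 87.0 units with WT RNA, 16.3 and 23.9 with AtmsKO RNA and 49.0 and 86.5 with RNA labelled Atmp38dKO. Atm was thus lower on the AtmsKO array with both probes (log2 differences from WT of -2.37 and -1.79) and less so on the Atmp38dKO array (-1.07 and -0.22). Mapk14 was not lower on the Atmp38dKO array with either probe, at 295, 260 and 345 units with the first and 469, 558 and 616 units with the second on the WT, AtmsKO and Atmp38dKO arrays. Whether these probes lie in the deleted parts was not analysed here. Since this check did not bear out the label, the array is called the array labelled Atmp38dKO throughout, and each direction drawn from it rests on that label.

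Pf4 and the brightest probe of Vwf were higher on the AtmsKO array than on the WT array, by 2.45-fold and 2.02-fold. The other Vwf probes did not repeat this, with log2 differences of 0.31 and -0.48. Gp5 was lowest on the array labelled Atmp38dKO, 2.91-fold under WT and 4.20-fold under AtmsKO. With a background correction that adds 50 units to each signal, its log2 differences shrank from -1.54 to -0.73 and from -2.07 to -1.05. Gp1bb and Gp9, which encode partners of the Gp5 product, differed by less than the scanner error in every comparison with their brightest probe. The transcription regulators Nfe2 and Zfpm1 lay within 0.22 on the log2 scale of WT on both mutant arrays.

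**Figure D1:**
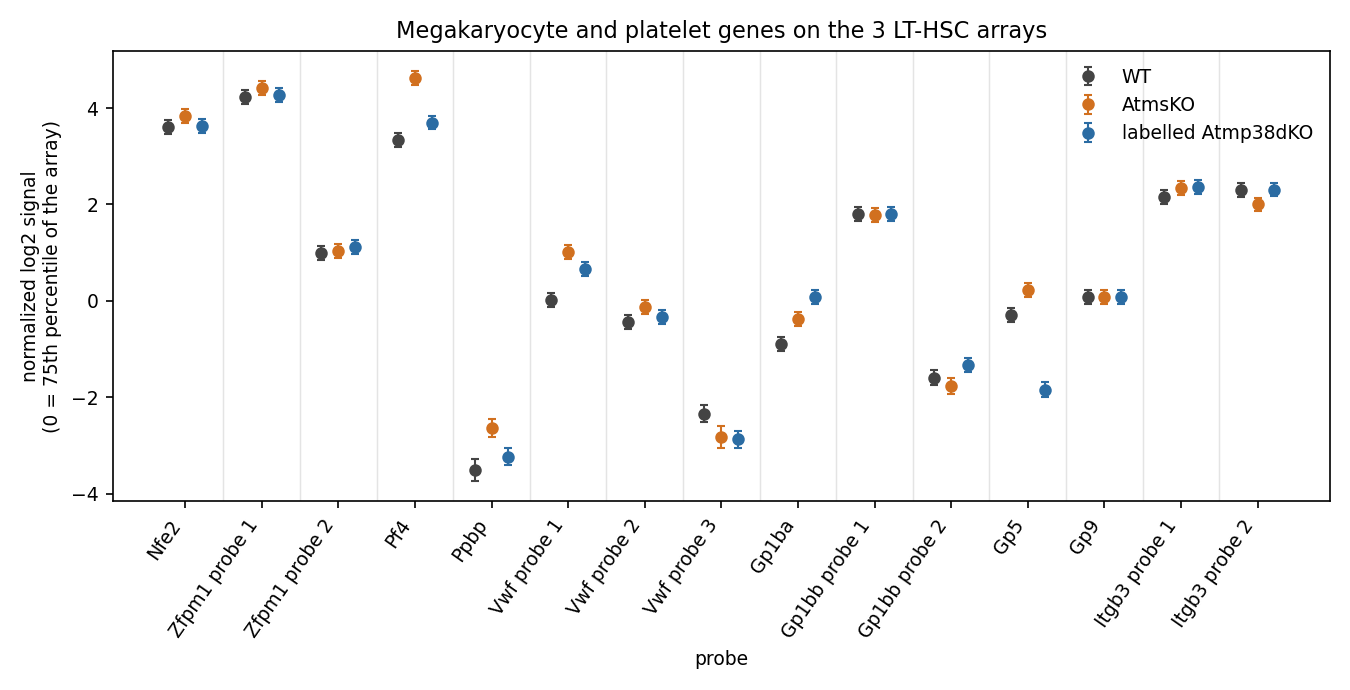
Normalized log2 signal (vertical axis, 0 is the 75th percentile of the array) of the 15 probes for the 10 genes for WT, AtmsKO and labelled Atmp38dKO, 1 point per array, with bars for the scanner software's error. Pf4 stands at 3.33, 4.62 and 3.70 on the 3 arrays and Gp5 at -0.30, 0.23 and -1.84, while the points of Gp9 and of the first Gp1bb probe coincide. Heights of different probes are not comparable.

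Among the regulators, Nfe2 encodes the blood-restricted subunit of NF-E2, the factor that drives the last steps of platelet formation. Its probe (chr15:103078729-103078788, minus strand, mm9) gave 1240 ± 124 units with WT RNA, 1370 ± 137 with AtmsKO RNA and 1460 ± 146 with Atmp38dKO-labelled RNA. The log2 differences from WT were 0.22 ± 0.20 and 0.02 ± 0.20. Zfpm1 encodes FOG1, which binds GATA1 and is needed for megakaryocytes to form. Its brighter probe (chr8:124861053-124861112, plus strand, mm9) gave 1910 ± 191, 2050 ± 205 and 2270 ± 227 units in the same order. The differences from WT were 0.18 ± 0.20 and 0.04 ± 0.20, and those of its other probe were 0.03 ± 0.20 and 0.12 ± 0.20. Both regulators were therefore within about 1 scanner error of WT, and their 3 levels have no order beyond that error.

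Pf4 encodes platelet factor 4, a chemokine stored in platelet alpha granules and a product of megakaryocytes. Its probe (chr5:91202275-91202334, plus strand, mm9) gave 1020 ± 102 units with WT RNA, 2370 ± 237 with AtmsKO RNA and 1540 ± 154 with Atmp38dKO-labelled RNA. The AtmsKO level was the highest, with a log2 difference from WT of 1.29 ± 0.20. The array labelled Atmp38dKO lay between, 0.38 ± 0.20 above WT and 0.92 below AtmsKO (log2 difference -0.92 ± 0.20, or 1.89-fold). Pf4 was the member with the largest difference between the AtmsKO and WT arrays.

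Ppbp encodes pro-platelet basic protein, the other abundant chemokine of platelet granules, and is the gene next to Pf4. Its probe (chr5:91198970-91199029, plus strand, mm9) was dim, with 8.91 ± 1.39, 15.5 ± 1.97 and 12.6 ± 1.60 units, against a lowest signal well above background of 5.33, 6.12 and 4.97 units on the same arrays. The order of the arrays was that of Pf4, with log2 differences from WT of 0.87 ± 0.29 on the AtmsKO array and 0.28 ± 0.29 on the array labelled Atmp38dKO. The AtmsKO difference is worth under 10 intensity units, and it was 0.23 with a background correction that adds 50 units to each signal.

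Among the further chemokine genes examined in the same stretch, only Cxcl5 was well above background on all arrays. Cxcl5, which encodes a neutrophil attractant and lies beside Ppbp, gave 19.6, 13.7 and 14.0 units. It was lower than WT on the AtmsKO array (log2 difference -0.43 ± 0.28) and on the array labelled Atmp38dKO (-0.69 ± 0.26). Cxcl3 and Cxcl1, on the other side of Pf4, were not well above background on any array. Cxcl15 was well above background on the WT array only. Cxcl3, Cxcl1 and Cxcl15 therefore cannot show whether the pattern of Pf4 was shared.

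Vwf encodes von Willebrand factor, the ligand that tethers platelets to injured vessels, made by megakaryocytes and by endothelial cells. The brightest of its 3 probes (chr6:125636551-125636610, plus strand, mm9), the one that carries a RefSeq transcript, gave 102 ± 10.3 units with WT RNA, 195 ± 19.6 with AtmsKO RNA and 188 ± 18.8 with Atmp38dKO-labelled RNA. Both mutant arrays were above WT, with log2 differences of 1.01 ± 0.20 and 0.66 ± 0.20. The gap between the mutant arrays (-0.35 ± 0.20) was smaller than either.

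The other probes for Vwf did not repeat this. They were designed on Ensembl transcripts and match the genome farther upstream. The second (chr6:125542106-125542165) gave 75.4, 88.4 and 93.5 units, with log2 differences from WT of 0.31 ± 0.21 and 0.09 ± 0.21. The third (chr6:125586583-125586642) gave 20.0, 13.6 and 16.1 units and was below WT on both mutant arrays, by -0.48 ± 0.29 and -0.53 ± 0.25. Averaged over the 3 probes, the AtmsKO difference came to 0.28. The higher Vwf level thus rests on 1 probe of 3.

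Since Vwf is also an endothelial gene, 12 endothelial markers were listed beside it. In the order WT, AtmsKO and labelled Atmp38dKO, 10, 10 and 10 of the 12 were well above background. Their summed level, in multiples of each array's 75th percentile, was 18.0, 19.1 and 16.3. Cdh5, which encodes the defining cadherin of endothelium, was not well above background on any array. Kdr, which encodes a VEGF receptor, gave 5.88, 114 and 18.1 units (log2 differences from WT of 4.35 and 1.41) and was the only marker of the list past 2-fold between the AtmsKO and WT arrays. Cldn5 (0.72) and Tek (0.58) were also higher there, at 19.6 and 45.4 units with WT RNA. Emcn was lower at 203, 134 and 160 units (-0.53), and so was Pecam1 at 134, 91.1 and 124 units (-0.48). Of the 10 markers considered on the AtmsKO array, 6 were higher than WT by any amount and 4 lower, with a median of 0.06. Of all genes 51.0% were higher. Plvap gave 12.5, 12.5 and 3.35 units and failed to clear background on the array labelled Atmp38dKO, which makes its differences of -1.54 from WT and -1.63 from AtmsKO bounds. The Kdr values rest on the brightest of its 3 probes, since no other probe was well above background on both arrays of any comparison. The WT signal of Kdr lay near the lowest that passed on that array, 5.33 units. The part of endothelial cells in the Vwf values was not tested. In bulk RNA of this kind, fewer cells of a type and less RNA per cell cannot be told apart.

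The receptor for von Willebrand factor is the GPIb-IX-V complex, and its subunit genes did not move together. Gp1ba encodes the ligand-binding chain. Its probe (chr11:70455461-70455520, plus strand, mm9) gave 54.8 ± 5.64 units with WT RNA, 74.4 ± 7.60 with AtmsKO RNA and 126 ± 12.6 with Atmp38dKO-labelled RNA. The level was lowest on the WT array, with log2 differences of 0.52 ± 0.21 and 0.98 ± 0.21, the latter a 1.97-fold difference. Of the brightest probes of the 10 genes it was the only one for which the array labelled Atmp38dKO exceeded AtmsKO by more than 2 scanner errors (0.47 ± 0.21).

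Gp5 encodes the glycoprotein V subunit, which thrombin cleaves. Its single probe, printed above, gave 82.3 ± 8.35 units with WT RNA, 113 ± 11.4 with AtmsKO RNA and 32.9 ± 3.53 with Atmp38dKO-labelled RNA. The AtmsKO level was above WT (0.53 ± 0.21) and the level on the array labelled Atmp38dKO was below both, by -1.54 ± 0.21 against WT and -2.07 ± 0.21 against AtmsKO. On that array Gp5 and Gp1ba, chains of the same receptor, lay on opposite sides of WT. With normexp background correction and its offset of 50 units, the Gp5 differences were -0.73 and -1.05, so that the one from WT no longer reached 2-fold.

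Gp1bb encodes the chain that links glycoprotein Ib-alpha to the complex. Its brighter probe, also printed above, gave 354 ± 35.4, 333 ± 33.3 and 411 ± 41.1 units, which left log2 differences from WT of -0.01 ± 0.20 and 0.00 ± 0.20. The dimmer probe (chr16:18621717-18621776, minus strand, mm9) gave 33.7, 28.2 and 46.8 units and differences of -0.18 ± 0.22 and 0.26 ± 0.21. Gp9 encodes the smallest chain, and its probe (chr6:87729650-87729709, plus strand, mm9) gave 108 ± 10.9, 103 ± 10.4 and 125 ± 12.5 units with differences of 0.01 ± 0.21 and 0.00 ± 0.21. Between the mutant arrays the dimmer Gp1bb probe differed by 0.44 ± 0.22, higher on the array labelled Atmp38dKO, whereas the brighter probe did not (0.01 ± 0.20). The 3 levels of Gp9 and of the brighter Gp1bb probe have no order. Septin5, the gene beside Gp1bb with a product found in platelets, gave 38.9, 48.7 and 61.8 units (0.40 and 0.45) with its brighter probe, and its dim probe gave 3.05, 27.3 and 8.27 units.

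Itgb3 encodes integrin beta-3, which pairs with the Itga2b product to form the fibrinogen receptor. Its first probe (chr11:104528625-104528684, plus strand, mm9) gave 452 ± 45.2, 489 ± 48.9 and 608 ± 60.8 units, with log2 differences from WT of 0.19 ± 0.20 and 0.21 ± 0.20. The second (chr11:104531672-104531731) gave 501 ± 50.1, 386 ± 38.6 and 586 ± 58.6 units, with differences of -0.30 ± 0.20 and 0.01 ± 0.20. The probes disagreed in direction on the AtmsKO array, so no direction is given for Itgb3 there. Of the 4 members with more than 1 probe, 2 had all probes on the same side of WT on the AtmsKO array (Zfpm1 and Gp1bb), and both stayed within the scanner error.

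**Figure D2:**
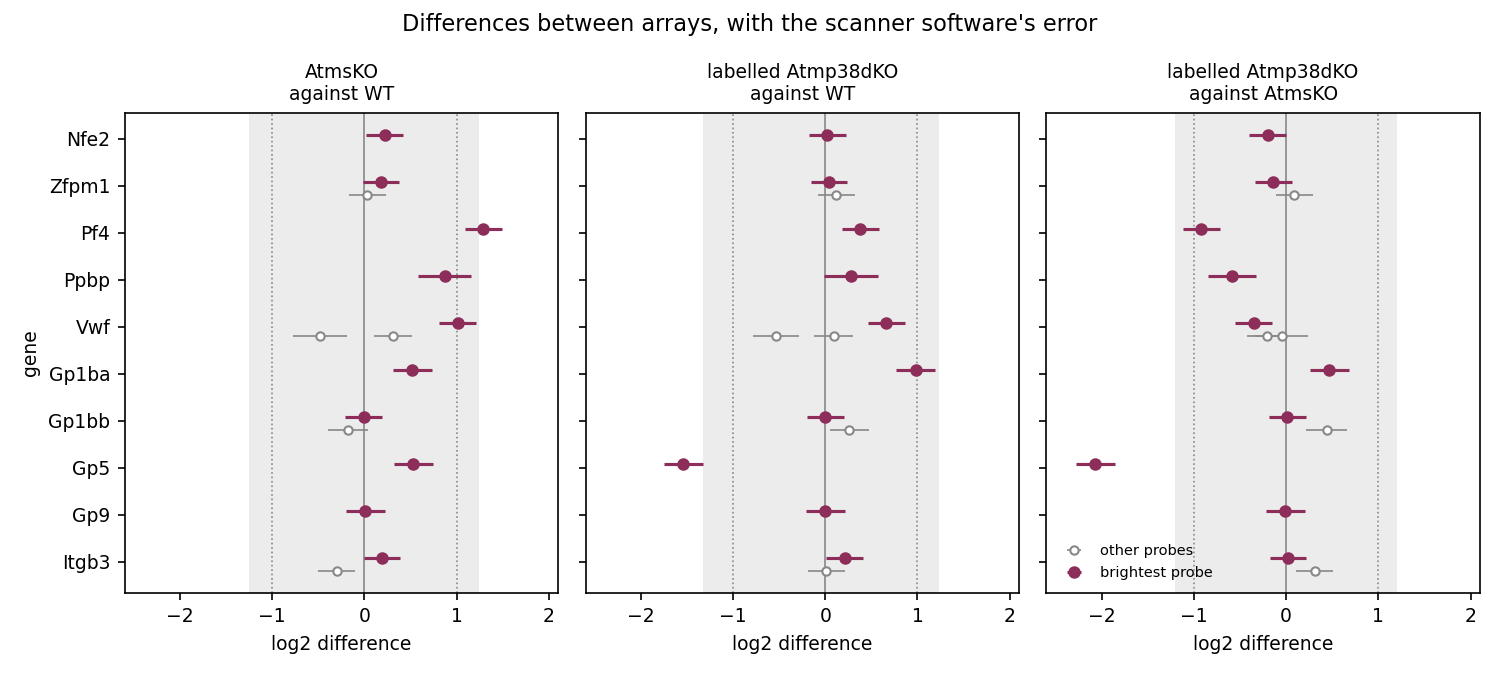
Log2 differences of the normalized signal (horizontal axes) for the 10 genes in the 3 comparisons, with filled points for the brightest probe of a gene, open points for its other probes and bars for the scanner software's error. The grey band holds the middle 95% of all genes considered (-1.24 to 1.23 in the first comparison) and dotted lines mark 2-fold. Pf4 (1.29) lies just outside the band in the first panel and Gp5 (-1.54 and -2.07) outside it in the others, and the Vwf probes are spread over both sides of 0 in the comparisons with WT.

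Counted over the set, 2 of the 10 genes exceeded WT at least 2-fold on the AtmsKO array and 0 were as much below it. Among all 29044 genes considered, those well above background on the brighter array, 3.86% were as much higher and 4.04% as much lower. Of the 10 genes, 9 were higher by any amount, against 51.0% of all genes, and their median log2 difference was 0.37, against 0.01 for all genes. The 9 include Gp9 (0.01 ± 0.21) and Itgb3, whose probes disagreed, so that this count overstates what the probes show. Above 100 units on both arrays, a minimum chosen after seeing the data, 2 of 7 members were at least 2-fold higher, beside 0.312% of 10254 genes. Vwf passed this minimum at 102 units with WT RNA and with 1 of its 3 probes. Just inside and outside the 2-fold mark stood Vwf (1.01) and Ppbp (0.87).

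Against WT on the array labelled Atmp38dKO, 0 of the 10 genes were at least 2-fold higher and 1, Gp5, was at least 2-fold lower, beside 3.98% and 4.46% of 30670 genes. Gp1ba (0.98) stood just under the mark. Gp5 was dimmer than 100 units on that array, so it is not among the genes over 100 units on both arrays, of which 0.666% were at least 2-fold lower than WT and 0.505% than AtmsKO. By any amount 8 were higher and 2 lower, against 52.2% and 47.8% of all genes, with a median of 0.12 beside 0.02. The share past 2-fold gives no result on the set. Both comparisons use the same WT array, so a deviation of that array enters each of them.

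Between the mutant arrays, with AtmsKO as the base, 0 of the 10 genes were at least 2-fold higher and 1, again Gp5, at least 2-fold lower, beside 3.72% and 3.64% of 30218 genes. By any amount 3 were higher and 7 lower, against 49.5% and 50.5% of all genes, and the median was -0.17 beside 0.00. The summed level of the 10 genes, in multiples of each array's 75th percentile, was 52.5 with WT RNA, 73.9 with AtmsKO RNA and 57.4 with Atmp38dKO-labelled RNA. The sum is dominated by the probes with the most signal, Pf4 among them.

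The rest of the megakaryocyte and platelet program was examined with 87 further genes in 5 lists, all on the array, of which 77 were well above background on all arrays. On the AtmsKO array 3 of 82 genes considered were past 2-fold above WT and 1 was past 2-fold below it, beside the 3.86% and 4.04% of all genes, and the median was 0.06. On the array labelled Atmp38dKO 2 of 86 were higher and 2 lower than on the WT array, beside 3.98% and 4.46% of all genes, with a median of 0.03. Between the mutant arrays 2 of 86 were higher and 4 lower on the array labelled Atmp38dKO. The shares of all genes were 3.72% and 3.64%, and the median of the 86 was 0.02. The higher levels of Pf4 and of the brightest Vwf probe on the AtmsKO array were thus not accompanied by a shift of these lists as a whole.

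The 15 megakaryocyte transcription factors all stayed within 2-fold of WT on both mutant arrays, with medians of 0.03 and -0.02. Gata1, which encodes the GATA factor of the red cell and megakaryocyte lineages, gave 513, 607 and 693 units (log2 differences from WT of 0.32 and 0.22). Gata2, its counterpart in stem and progenitor cells, gave 6180, 6290 and 6630 units (0.10 and -0.11). Fli1, an ETS factor of megakaryocytes, gave 434, 450 and 544 units (0.13 and 0.11). None of these lay far from WT. Runx1, a core-binding factor required for megakaryocyte maturation, gave 1390, 1260 and 1630 units (-0.06 and 0.01). Gfi1b, a transcriptional repressor that acts within the red cell and megakaryocyte lineages, gave 112, 127 and 160 units (0.26 and 0.30). Between the mutant arrays 1 factor passed 2-fold, Ets1 (-1.05), named after its value was seen, and its other probe went the other way.

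The thrombopoietin list held 8 genes and had medians of -0.02 and 0.18 against WT on the AtmsKO array and the array labelled Atmp38dKO, with none past 2-fold. Itga2b, which encodes CD41 and was counted among the surface receptors, gave 169, 120 and 167 units (-0.41 and -0.23). On the AtmsKO array, where Pf4 and the brightest Vwf probe were higher than WT, Itga2b was therefore lower, within 2-fold.

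Among 24 surface receptor genes the medians were 0.09 and 0.10. Selp, which encodes P-selectin of platelet granules and was counted among the granule genes below, gave 94.8, 88.4 and 104 units (-0.02 and -0.07). Gp6, which encodes the collagen receptor of platelets, gave 25.3, 21.9 and 23.1 units (-0.13 and -0.35). The receptor genes past 2-fold were all dim and not well above background on 1 or more arrays, and they were named after their values were seen. Itga2, an integrin chain for collagen, exceeded WT at least 2.16-fold on AtmsKO. Cd36, a thrombospondin receptor, was at least 4.10-fold higher on the array labelled Atmp38dKO than on the WT array and at least 3.38-fold higher than on the AtmsKO array. Adra2a, an adrenergic receptor, was at least 2.83-fold and 4.37-fold lower there than on the WT and AtmsKO arrays.

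Among 18 granule and secreted protein genes the medians were 0.00 and -0.11. Thbs1, which encodes thrombospondin-1 of alpha granules, gave 77.6, 27.1 and 37.2 units and was lower than WT on the AtmsKO array (2.71-fold) and on the array labelled Atmp38dKO (2.42-fold). Its direction on the AtmsKO array was opposite to that of Pf4 and of the brightest Vwf probe, whose products are stored in the same granules. Clu, which encodes clusterin, gave 77.3, 110 and 60.4 units, with AtmsKO 2.22-fold over the array labelled Atmp38dKO.

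The 22 cytoskeleton and signaling genes had medians of 0.16 and 0.08. Tubb1, which encodes the beta-tubulin of the platelet marginal band, gave 23.5, 19.8 and 34.8 units (-0.17 and 0.35). Slc35d3, a gene needed for platelet dense granules, gave 26.9, 52.1 and 16.6 units. Like Gp5 it was highest on the AtmsKO array and lowest on the array labelled Atmp38dKO, 2.05-fold above WT on the first and 3.83-fold below AtmsKO on the second. Rab27b, which encodes a GTPase of granule secretion, gave 66.5, 34.2 and 115 units and went the opposite way, 2.74-fold higher on the array labelled Atmp38dKO than on the AtmsKO array. Alox12, a platelet lipoxygenase named after its value was seen, was not well above background on the WT array and was at least 2.44-fold and 2.92-fold higher on the AtmsKO and Atmp38dKO-labelled arrays.

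**Figure D3:**
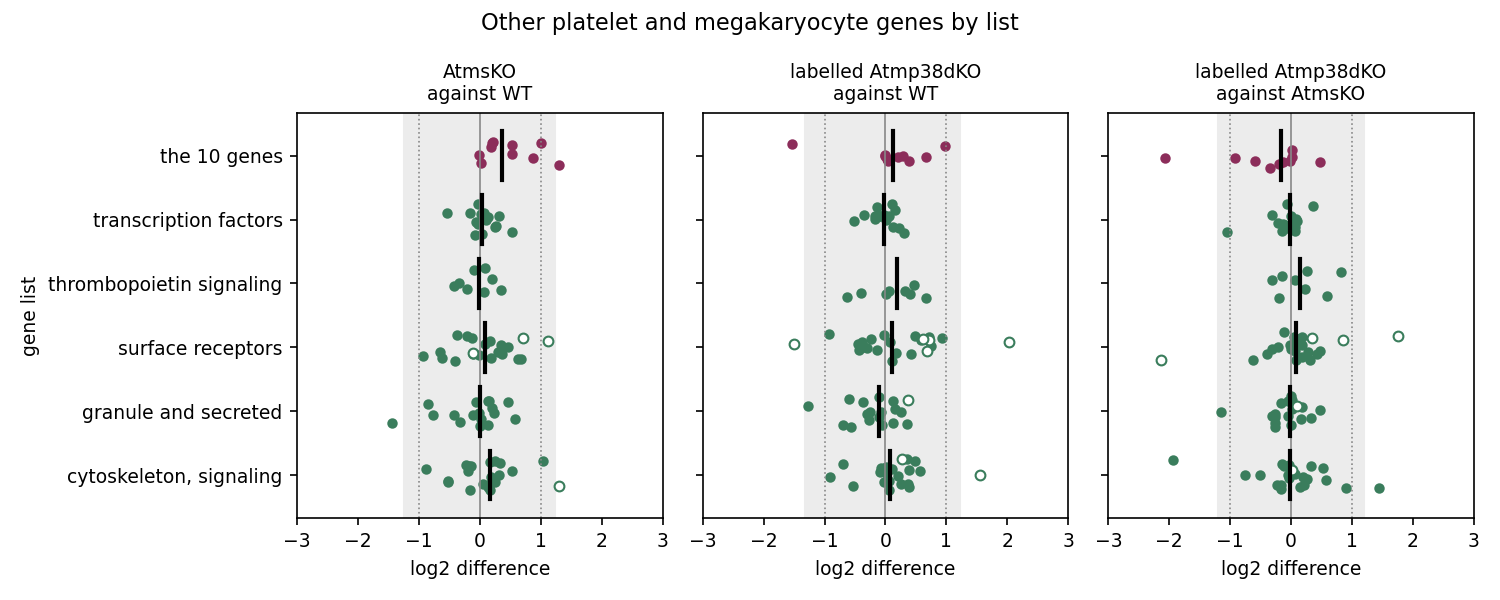
Log2 differences (horizontal axes) in the 3 comparisons for the 10 genes and for the 5 lists of other megakaryocyte and platelet genes, 1 point per gene, with open points where an array not well above background makes the value a bound and a black line at the median. The grey band holds the middle 95% of all genes considered and dotted lines mark 2-fold. In the first panel the median of the 10 genes is 0.37 and those of the lists lie between -0.02 and 0.16.

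Likeness to Pf4 and Vwf was measured among the 77 genes by the larger of the gaps between 2 genes' log2 differences from WT on both mutant arrays. Tbxa2r, which encodes the thromboxane receptor of platelets, was nearest to both, with gaps of 0.62 to Pf4 and 0.34 to Vwf. It gave 93.0, 141 and 178 units (0.67 and 0.72 against WT). Vps33b, a gene of alpha granule formation, came next with gaps of 0.76 and 0.48 and gave 112, 154 and 170 units (0.53 and 0.39), but its other probe went the other way. No gene of the lists matched the Pf4 pattern within the scanner error.

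Marker lists of stem cells and of other blood cells were read beside these values. The 12 HSC markers were all well above background on the 3 arrays, with summed levels of 90.3, 90.8 and 82.1. Their median on the array labelled Atmp38dKO was -0.37 against WT, with Hoxb5 (-1.64) and Fgd5 (-1.72), markers of LT-HSCs, past 2-fold. Of 12 erythroid markers 11, 12 and 12 were well above background, with summed levels of 18.5, 19.3 and 22.1. Single erythroid genes moved more than the sum. Hbb-bt, a beta-globin gene with near-identical copies that a probe may not separate, gave 137, 331 and 460 units (1.35 and 1.53 against WT). Alas2, which encodes the first enzyme of heme synthesis in red cells, gave 6.50, 20.4 and 26.3 units (1.72 and 1.80). Both were therefore higher than WT on the AtmsKO array, as Pf4 was, and unlike Pf4 about as high on the array labelled Atmp38dKO. Car1, a red cell carbonic anhydrase, was lower on the AtmsKO array (-1.05), where its other probe went the other way. For the granulocyte list 11, 11 and 12 of 12 were well above background, with sums of 34.8, 41.6 and 39.9. S100a9, its brightest gene at 1660, 1790 and 2380 units, weighs most in these sums. Against WT, 8 of its genes were higher and 3 lower on the AtmsKO array (median 0.20). The same counts were 8 and 4 on the array labelled Atmp38dKO (median 0.16). Of all genes 51.0% and 52.2% were higher by any amount in these comparisons. For mast cells and basophils 6, 5 and 8 of 12 were well above background, with sums of 3.45, 3.71 and 3.91. Monocyte and macrophage markers (8, 8 and 7 of 12) had sums of 38.2, 37.1 and 35.7. B cell markers (9, 8 and 11 of 12) had sums of 23.7, 24.4 and 25.9. T and NK cell markers (9, 9 and 11 of 11 on the array) had sums of 6.80, 7.95 and 10.5. The last sum rests in part on Cd2, which gave 3.36, 1.56 and 180 units. Cd2 was well above background on the array labelled Atmp38dKO only, at least 29.1-fold over WT and 24.0-fold over AtmsKO with its brightest probe. Past 2-fold of WT on the AtmsKO array were 0 genes of the granulocyte, mast cell and T and NK lists, 2 B cell genes (lower) and the macrophage gene Adgre1 (lower). Of all genes 3.86% were as much higher there and 4.04% as much lower. On the array labelled Atmp38dKO 1 granulocyte gene, 2 mast cell and basophil genes and Cd2 were past 2-fold above WT. There 1 B cell gene and 2 monocyte and macrophage genes were past 2-fold below WT. Of all genes 3.98% were as much higher on that array and 4.46% as much lower. The part of these cells in the values of Pf4, Vwf and Gp5 was not tested.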

How the data were processed

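RNA of LT-HSCs was measured on 3 one-colour Agilent arrays, 1 per group, and groups came from the sample titles. The deposited scanner output holds intensity per spot, background-subtracted within the array and not normalized between arrays, made with Agilent Feature Extraction 11.5.1.1 per the submitters' processing notes. Its error column gave the scanner error, carried into differences by adding both relative errors in quadrature. The authors also deposited a log2 table with its zero point unstated. It equaled log2 of the intensity minus a constant per array within 0.02 for 99.97%, 99.96% and 99.78% of probes, with medians of -2.18, -2.21 and -2.16. Probe positions are on mm9 per the file headers, and exons and UTRs were not analysed here.

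Control and outlier spots were left out, spots of a probe were averaged, and log2 intensity less the 75th percentile of each array's non-control probes was the normalized level (pandas 2.3.3, limma 3.58.1). A probe passed as well above background when this held for over 50% of its spots. Dimmer values were set to the array's lowest signal that passed, unless higher themselves. Differences from such values are bounds. The brightest probe stood for a gene, renamed through RefSeq accessions for 32994 probes. The share well above background was 73.3%, 68.9% and 77.7% of probes, and probes printed 10 times had a median SD of 0.053 on the log2 scale between spots. Scaling by a percentile leaves relative levels only; 1 array per group limits the precision.

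Genes counted in a comparison had to pass on the brighter array, and 2-fold was the mark. Named were the 10 members, Atm, Mapk14, 10 fixed genes, up to 2 rises and 2 falls past 2-fold per comparison in the 5 lists, and the 2 list genes nearest to Pf4 and to Vwf. The results of some genes are not reported here. The members and lists were chosen with earlier results of these data known. The functions were tested on simulated data. Alternative settings were 10, with 1 more chosen after seeing the data.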

Additional observations from a re-analysis of the deposited data

How the results depend on the processing

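No paired analysis was possible because there was 1 array per group and therefore no test, and leaving out an array would leave no comparison. Of 210 recomputed differences of single members 197 moved by less than the scanner error and 13 by more. Of 159 counts and medians 112 stayed alike or nearly so and 47 moved, all of them counts. Held as alike were small changes in the counts of other platelet genes. Those lower between the mutant arrays went from 4 to 3 when both arrays had to pass background. Those higher on the AtmsKO array than on WT went from 3 to 2 with the mean of all probes. No called value changed sign. In each list below, the order is higher and lower on the AtmsKO array against WT, then on the array labelled Atmp38dKO against WT, then on that array against AtmsKO. With normexp background correction, 1 member was 2-fold higher (Vwf fell to 0.74), Gp5 (-0.73) was no longer 2-fold lower than WT, leaving 0, and all 6 counts of other platelet genes became 0, while the share of all genes past 2-fold in 1 direction dropped to between 0.225% and 0.476%. Ppbp changed from 0.28 to -0.04 on the array labelled Atmp38dKO. With the authors' log2 table, and likewise with no floor or background filter, the other platelet genes came to 3 lower, 5 higher and 6 higher in the respective comparisons. Required above background on both arrays, they came to 1 higher, then 0 higher and 1 lower, then 1 higher. With the mean of all probes, 1 member (Pf4) was 2-fold higher on AtmsKO, Vwf was at 0.28 and 0.08, Itgb3 turned from 0.19 to -0.05, and the other platelet genes had 1 higher against WT on the array labelled Atmp38dKO, and 1 higher and 2 lower against AtmsKO. At 4-fold, 0 members were higher on AtmsKO and 0 lower against WT, Gp5 stayed lower than AtmsKO, and the other genes had 0 and 0, then 1 and 0, then 0 and 1. At 8-fold all counts were 0. Of all genes, 0.384% to 0.880% passed 4-fold and 0.0894% to 0.318% passed 8-fold in 1 direction. With signals of at least 100 units on both arrays, an alternative chosen after seeing the data, 7 members remained and 0 were lower, Gp5 being under 100 units, and 0 of 52, 52 and 53 other genes passed 2-fold. The normexp correction added an offset of 50 units to each signal, which by arithmetic narrows the log2 differences of dim probes most. What caused the moves beyond that was not tested. The Pf4 difference between AtmsKO and WT ranged from 1.20 to 1.30 over the 7 settings that recompute it. Dim probes such as Ppbp rest on few intensity units.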
